A study of Mus musculus with 3 samples.

Results

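The tumour necrosis factor (TNF) superfamily was examined as 47 protein-coding genes, of 21786 protein-coding and 52661 listed genes in all. They were taken by symbol, namely Tnf, Lta, Ltb, Fas, Fasl, Cd40, Cd40lg, Ltbr and all genes named Tnfrsf, Tnfsf or Traf with a number, and the rule uses no measured value. Bulk RNA sequencing had been done on 3 sorted populations of mouse mammary cells, with 1 library each. The labels give all 3 as PROCR-positive mammary epithelial cells that were EpCAM+ and CD49f high. The CD36+ library was from CD36+, PDPN- cells whose title adds Cdh5+. The double-negative library was from CD36-, PDPN- cells whose title also gives Cdh5+. The PDPN+ library was from CD36-, PDPN+ cells whose title gives Cdh5-. The populations are named below by these labels, each standing for 1 library. No genotype, strain, age or treatment is stated in the labels used here, and neither is the number of mice or cells behind a library.

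Ligands of this superfamily are mostly membrane proteins that act as trimers, and many can be shed. Their receptors either recruit TRAF adaptor proteins, which feed NF-kappa B and MAP kinase signalling, or carry a death domain through which caspases can be engaged. In the mammary gland the family is best known for RANK ligand and its receptor RANK, which relay the progesterone signal to epithelial cells, and in blood vessels for TNF, which induces adhesion molecules, and for the lymphotoxin beta receptor, which maintains high endothelial venules.

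The libraries held 67675778 estimated counts (CD36+), 51138993 (double-negative) and 63871266 (PDPN+). Levels are given as CPM after TMM scaling of library sizes, and comparisons between genes use the deposited TPM, which is corrected for transcript length. With 1 library for each population no test was possible, so every difference is between libraries, and the 95% intervals are exact Clopper-Pearson intervals of counting error alone. A gene is called apart where its ratio, computed on the log2 scale with a prior count of 2, reached 4-fold, and its level in the higher of both libraries reached 10 CPM. Total-count scaling in place of TMM moved the log2 ratios of CD36+ over PDPN+ cells by -0.40 and of double-negative over PDPN+ cells by -0.23, less where a library had few counts, and upper quartile scaling moved them by 0.27 and 0.28. Ratios smaller than these shifts have no settled direction.

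The marker genes divided the libraries against their common epithelial label. The 10 endothelial markers summed to 6657 CPM in CD36+ cells and 4594 CPM in double-negative cells, against 141 CPM in PDPN+ cells, and the 5 venous ones to 38037, 29308 and 381 CPM in the same libraries. The 8 basal epithelial markers summed to 82.1 CPM in CD36+ cells and 245 CPM in double-negative cells, against 5886 CPM in PDPN+ cells. Luminal markers (10 genes) summed to between 419 and 652 CPM in the 3 libraries, but single genes ran in different directions. In CD36+, double-negative and PDPN+ cells Pgr stood at 0.0169, 8.04 and 0.189 CPM and Foxa1 at 0.0169, 9.39 and 0.0541 CPM. Esr1 (39.1, 5.13 and 13.7 CPM) and Prlr (35.6, 5.01 and 10.4 CPM) were lowest in double-negative cells. Krt8 and Krt18 were highest in PDPN+ cells, and Krt19, Kit and Csn3 lowest there. In the same order, the 6 fibroblast markers summed to 116, 61.1 and 611 CPM and the 4 pericyte markers to 258, 164 and 63.2 CPM. Epcam, a sort marker, stood at 50.7 CPM in CD36+ cells and 104 CPM in double-negative cells, against 560.1 CPM in PDPN+ cells. Cd36 stood at 4766 CPM in CD36+ cells and 1523 CPM in double-negative cells, against 45.1 CPM in PDPN+ cells. The double-negative library, though sorted as CD36-, was thus not free of Cd36 transcript. In the same order, Pdpn stood at 12.5, 32.3 and 830 CPM and Cdh5 at 465, 206 and 0.176 CPM. Procr stood at 746, 528 and 208 CPM and Itga6, the CD49f gene, at 436, 399 and 1021 CPM. Leukocyte markers were low in all: between 6.60 and 17.0 CPM for 8 T and NK cell genes, 1.51 and 10.6 for 4 B cell genes, 0.594 and 9.59 for 6 myeloid genes, and 0.811 and 7.03 for 3 pan-leukocyte genes. In bulk libraries fewer cells of a type and less RNA per cell cannot be told apart.

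Of the 47 members, 28 reached 10 CPM in at least 1 library. Their highest level was in CD36+ cells for 9 (32.1%), in double-negative cells for 10 (35.7%) and in PDPN+ cells for 9 (32.1%). Of all genes at that level, 33.6%, 28.2% and 38.2% were highest in these libraries. The members split 8, 10 and 10 under total counts and 10, 10 and 8 under upper quartile scaling. Of the same 28, 9 had at most 3 counts in another library, against a background of 13.4% of all 10223 genes that reached 10 CPM anywhere. By pair, this held for 6 members between CD36+ and PDPN+ cells (7.51% of all genes), 6 between double-negative and PDPN+ cells (8.11%) and 3 between CD36+ and double-negative cells (6.56%). The kit used for each library is not stated, so kit and population cannot be told apart. These 9 were Ltb, Tnfrsf1b and Tnfsfm13, near nothing in PDPN+ cells; Tnfsf11, Tnfsf18 and Tnfrsf18, near nothing in CD36+ cells; Tnfsf9, at 0 counts in double-negative cells; and Tnfrsf11b and Tnfrsf19, near nothing in both CD36+ and double-negative libraries. Members with 0 counts numbered 12 in CD36+ cells, 9 in double-negative cells and 12 in PDPN+ cells. Tnf, Lta, Tnfsf14, Tnfsf13, Fasl and Tnfrsf4 had 0 counts in every library, so no transcript of the cytokine that names the family was found in any of them. A count of 0 allows up to 0.0507 CPM in CD36+ cells, 0.0594 CPM in double-negative cells and 0.0406 CPM in PDPN+ cells. These bounds do not hold for Tnfsf13, since 58.4% of the 31-base stretches in its annotated transcripts also occur in Tnfsfm13. Reads of Tnfsf13 can thus be counted under Tnfsfm13, and its absence is uncertain.

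**Figure D1:**
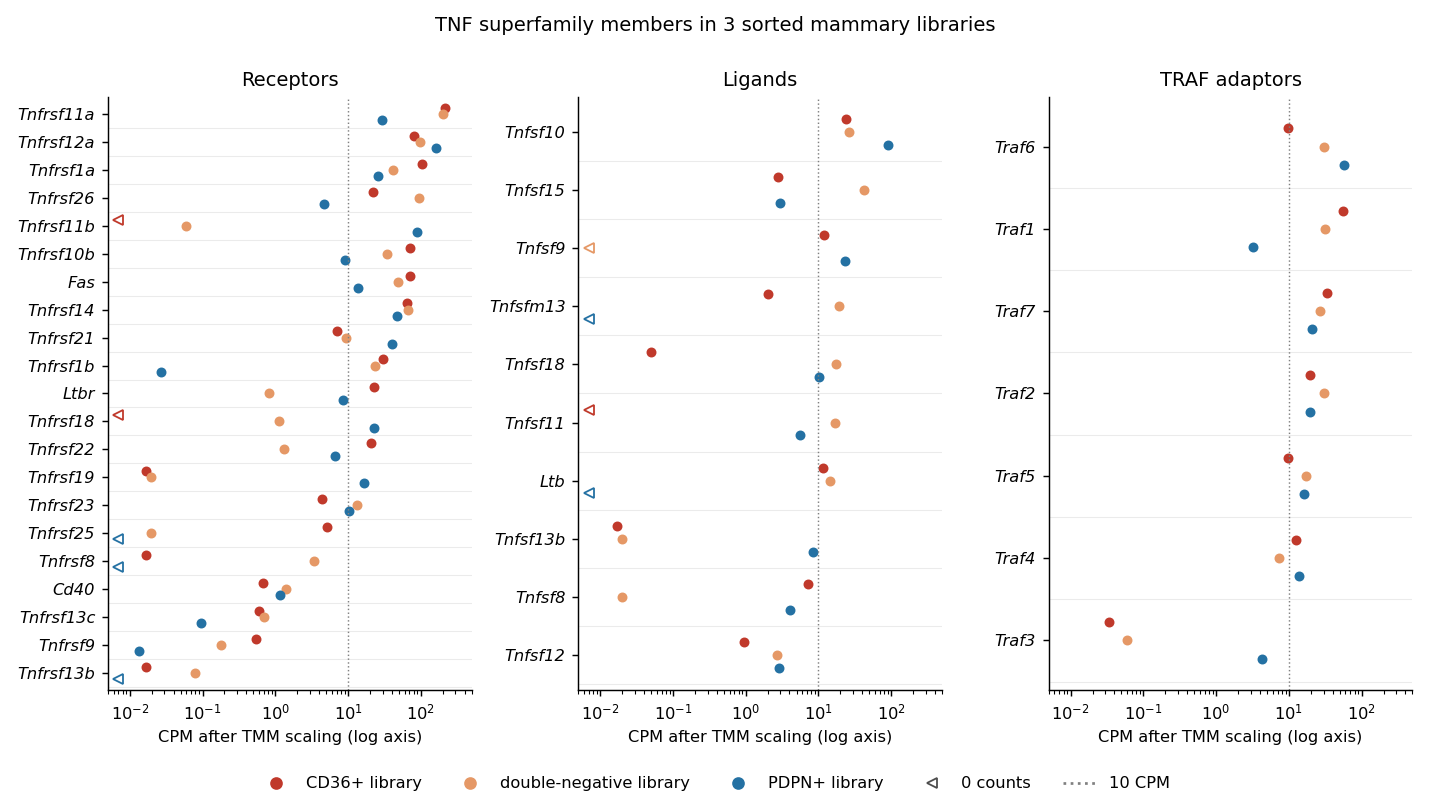
Level of each member with more than 3 counts in any library, in CPM on a log axis, with 1 point for each library and open triangles for 0 counts. Levels are to be read along a row, since CPM is not corrected for length; Tnfrsf11b, Tnfrsf19, Tnfrsf1b and Ltb show libraries at or near 0 beside others above 10 CPM.

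Between CD36+ and PDPN+ cells, 13 of the 25 members with at least 10 CPM in either were apart, 7 higher and 6 lower in CD36+ cells, where 32.7% of all 9387 genes at that level were apart, 15.1% higher and 17.6% lower. Under total-count scaling the split was 5 higher and 7 lower, without Fas and Tnfrsf26 and with Tnfsf10, and under upper quartile scaling it was 8 and 5, with Tnfrsf1a. Between double-negative and PDPN+ cells, 12 of 26 members were apart, 7 higher and 5 lower in double-negative cells, against 34.2% of 9515 genes, 14.9% higher and 19.3% lower. Upper quartile scaling gave 9 higher and 4 lower there, with Fas and Tnfrsf10b and without Tnfrsf21, and total counts gave 7 and 7. Between CD36+ and double-negative cells, 8 of 24 were apart, 3 higher and 5 lower in CD36+ cells, against 24.2% of 8968 genes, 12.2% higher and 11.9% lower. Among protein-coding genes alone the backgrounds were 32.6%, 34.0% and 23.3% in the same order. The median log2 ratios of the members that reached 10 CPM were 0.00, 0.59 and -0.09, beside -0.02, -0.11 and 0.11 for all genes. Members that reached 10 CPM through 1 high library had to differ, so these shares describe the members and are no test. The 2 comparisons with PDPN+ cells share that library and are not independent. The endothelial and basal markers moved with these comparisons, and their part in the members' differences was not tested.

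**Figure D2:**
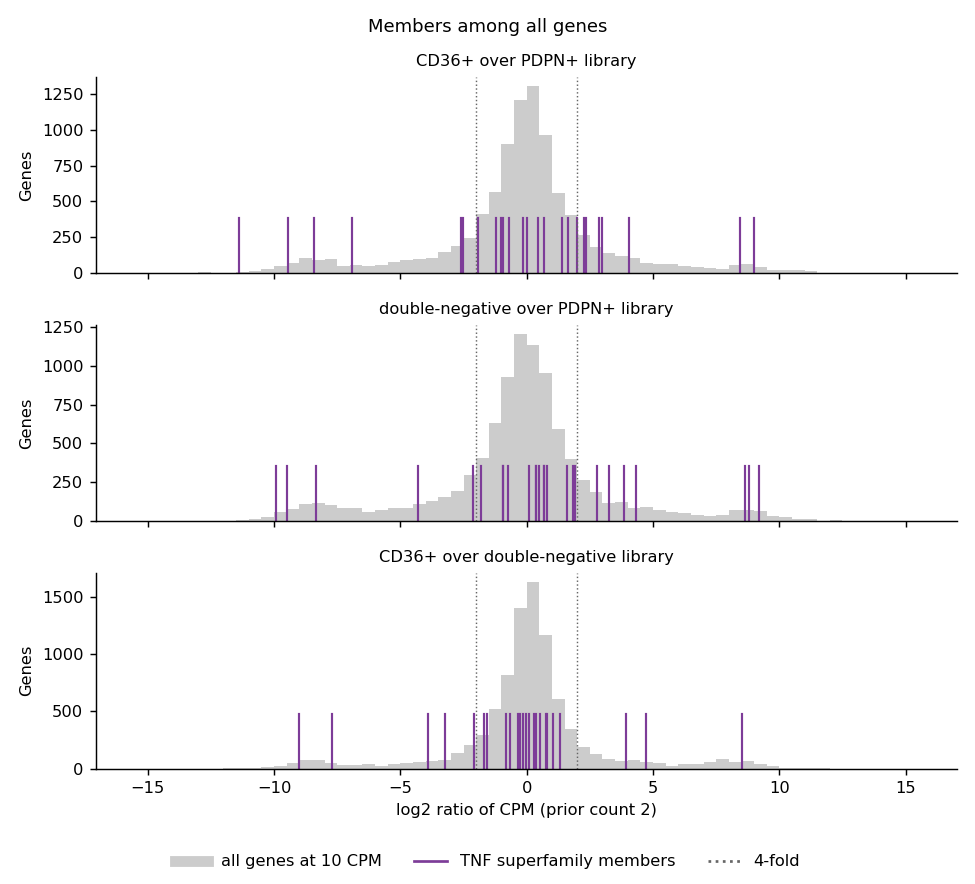
Distribution of log2 CPM ratios (prior count 2) over all genes with at least 10 CPM in either library of a pair (grey), with each member as a purple line and dotted lines at 4-fold. Members lie both within the central peak and in both outer tails, with 13 of 25, 12 of 26 and 8 of 24 outside the dotted lines from top to bottom.

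In both comparisons with PDPN+ cells, 5 members were apart on the higher side (Ltb, Tnfrsf11a, Tnfrsf1b, Tnfrsf26 and Traf1) and 4 on the lower side (Tnfrsf11b, Tnfrsf18, Tnfrsf19 and Tnfrsf21). The share of all genes apart in both was not computed, and both comparisons share the PDPN+ library, so these counts only describe the members. The sequence around the annotated start was at hand for 7 of these 9, and is shown because these members were apart in the same direction in both comparisons. Each is 250 bases before to 50 after the start, 5′ to 3′ on the gene's strand, from RefSeq on GRCm38.p6, with capitals marking any match to 4 motifs on either strand. The motifs were CAGGTG and CAGCTG, both E-boxes, the AP-1 site TGANTCA, and the NF-kappa B consensus. The first 4 sequences are of genes higher in CD36+ and double-negative cells, the other 3 of genes higher in PDPN+ cells (for Tnfrsf19 the upstream of 2 starts).
Tnfrsf11a, chr1:105780473-105780772, plus strand: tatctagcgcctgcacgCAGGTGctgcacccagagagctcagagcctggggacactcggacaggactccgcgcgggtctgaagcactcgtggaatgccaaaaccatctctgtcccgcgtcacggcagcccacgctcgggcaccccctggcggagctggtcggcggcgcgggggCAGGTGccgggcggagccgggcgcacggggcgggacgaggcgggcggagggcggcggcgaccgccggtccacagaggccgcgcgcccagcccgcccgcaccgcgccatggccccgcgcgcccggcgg
Tnfrsf1b, chr4:145246821-145247120, minus strand: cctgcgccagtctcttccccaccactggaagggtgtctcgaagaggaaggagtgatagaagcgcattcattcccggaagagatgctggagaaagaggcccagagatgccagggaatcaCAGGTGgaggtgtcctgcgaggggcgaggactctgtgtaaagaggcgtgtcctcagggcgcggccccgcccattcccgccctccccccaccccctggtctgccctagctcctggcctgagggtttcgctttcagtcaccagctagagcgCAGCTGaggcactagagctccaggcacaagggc
Ltb, chr17:35194257-35194556, plus strand: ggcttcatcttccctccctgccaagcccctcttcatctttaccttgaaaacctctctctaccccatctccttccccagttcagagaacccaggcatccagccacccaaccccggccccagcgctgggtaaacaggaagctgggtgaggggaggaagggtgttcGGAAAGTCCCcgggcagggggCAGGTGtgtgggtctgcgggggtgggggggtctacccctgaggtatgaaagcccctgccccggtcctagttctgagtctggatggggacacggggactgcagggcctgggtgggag
Traf1, chr2:34961723-34962022, minus strand: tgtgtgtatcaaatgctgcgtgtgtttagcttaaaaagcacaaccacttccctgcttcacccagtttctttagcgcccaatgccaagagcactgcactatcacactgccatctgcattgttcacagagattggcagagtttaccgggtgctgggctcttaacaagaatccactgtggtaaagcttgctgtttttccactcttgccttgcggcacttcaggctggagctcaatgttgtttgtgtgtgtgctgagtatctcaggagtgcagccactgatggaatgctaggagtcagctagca
Tnfrsf18, chr4:156026072-156026371, plus strand: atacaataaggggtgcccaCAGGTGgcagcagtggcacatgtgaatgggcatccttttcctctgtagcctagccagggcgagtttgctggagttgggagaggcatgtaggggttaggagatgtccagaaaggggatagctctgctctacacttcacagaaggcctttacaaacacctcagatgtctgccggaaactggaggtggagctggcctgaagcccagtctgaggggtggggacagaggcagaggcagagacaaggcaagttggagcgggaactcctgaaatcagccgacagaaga
Tnfrsf19, chr14:61046806-61047105, minus strand: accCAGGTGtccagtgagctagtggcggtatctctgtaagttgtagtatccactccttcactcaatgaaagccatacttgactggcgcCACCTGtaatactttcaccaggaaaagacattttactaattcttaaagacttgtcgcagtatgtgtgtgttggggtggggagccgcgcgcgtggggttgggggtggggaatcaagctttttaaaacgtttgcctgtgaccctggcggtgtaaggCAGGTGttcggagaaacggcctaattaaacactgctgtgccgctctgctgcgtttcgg
Tnfrsf21, chr17:43016305-43016604, plus strand: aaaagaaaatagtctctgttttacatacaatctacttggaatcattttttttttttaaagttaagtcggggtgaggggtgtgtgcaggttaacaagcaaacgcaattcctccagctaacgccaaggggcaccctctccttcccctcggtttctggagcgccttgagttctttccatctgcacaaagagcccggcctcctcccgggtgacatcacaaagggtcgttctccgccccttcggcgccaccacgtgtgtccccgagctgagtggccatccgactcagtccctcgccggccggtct

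CAGGTG was marked in the windows of Tnfrsf11a, Tnfrsf1b and Ltb as well as in those of Tnfrsf18 and Tnfrsf19, so it fell on both sides (CACCTG is its other strand). The NF-kappa B consensus was marked in that of Ltb, and no motif in those of Traf1 and Tnfrsf21. Windows were found for 38 of the 47 members (42 windows). CAGGTG stood in 11 of the 42, or 26.2%, against 20.2% of all 32851 windows in the table, and CAGCTG in 7, or 16.7%, against 16.3%. The NF-kappa B consensus stood in 5, or 11.9%, against 8.46%, and TGANTCA in 7, or 16.7%, against 7.81%. Matches of different motifs overlapped in 2 places. A match is a run of letters and not a bound site.

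In the RANK axis the receptor was higher in CD36+ and double-negative cells, the ligand was found in double-negative and PDPN+ cells, and nearly all decoy counts were in PDPN+ cells. Tnfrsf11a encodes RANK (chromosome 1, 105780718 to 105847981, plus strand of mm10), Tnfsf11 its ligand RANKL (chromosome 14, 78277445 to 78308043, minus strand), and Tnfrsf11b osteoprotegerin, a secreted decoy that binds RANKL (chromosome 15, 54250619 to 54278484, minus strand). Tnfrsf11a stood at 217 CPM in CD36+ cells and 204 CPM in double-negative cells, against 29.5 CPM in PDPN+ cells. It was 7.36-fold higher in CD36+ than in PDPN+ cells (interval 7.03 to 7.70) and 6.93-fold higher in double-negative cells (6.62 to 7.26). RANK transcript was thus higher in the libraries with endothelial markers than in the library with basal markers. Between CD36+ and double-negative cells its ratio was 1.06, and this small difference lay the other way under total counts and in TPM.

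Tnfsf11 had 0 counts in CD36+ cells, 853 counts (16.9 CPM) in double-negative cells and 410 counts (5.54 CPM) in PDPN+ cells. RANKL was therefore at least 333-fold lower in CD36+ than in double-negative cells, and 3.05-fold higher in double-negative than in PDPN+ cells (2.71 to 3.44). The luminal markers Pgr (0.0169, 8.04 and 0.189 CPM) and Foxa1 (0.0169, 9.39 and 0.0541 CPM) had the same order over CD36+, double-negative and PDPN+ cells. The other luminal markers did not, with Esr1 and Prlr lowest in double-negative cells. The part of luminal cells in the RANKL level was not tested. Tnfrsf11b had 0 counts in CD36+ cells and 3 in double-negative cells, against 6525 counts (88.2 CPM) in PDPN+ cells. Its ratio was at least 1741-fold lower in CD36+ cells and 1485-fold lower in double-negative cells (508 to 7202). Osteoprotegerin is also made by stromal cells, and the fibroblast markers were highest in the same PDPN+ library, whose part in this was not tested. In TPM, RANK stood at 60.6, 71.7 and 9.41 in CD36+, double-negative and PDPN+ cells, RANKL at 0, 9.93 and 4.18, and osteoprotegerin at 0, 0.0272 and 51.8.

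The receptors of TNF itself were present although the ligand was not found. Tnfrsf1a encodes TNFR1, the death-domain receptor found on most cells (chromosome 6, 125349362 to 125362484, plus strand), and Tnfrsf1b encodes TNFR2, which lacks a death domain (chromosome 4, 145213463 to 145246870, minus strand). Tnfrsf1a stood at 103 CPM in CD36+ cells and 41.5 CPM in double-negative cells, against 25.9 CPM in PDPN+ cells. It was 3.97-fold higher in CD36+ cells than in PDPN+ cells (3.77 to 4.18), just short of the size needed to be called apart, and 1.60-fold higher in double-negative cells (1.50 to 1.70). Tnfrsf1b stood at 30.6 CPM in CD36+ cells and 23.6 CPM in double-negative cells, against 2 counts (0.0270 CPM) in PDPN+ cells. The ratio was 1132 (313 to 9358) for CD36+ cells and 872 (241 to 7211) for double-negative cells, so all but 2 counts of the second TNF receptor were in the libraries with endothelial markers.

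Lymphotoxin beta (Ltb, chromosome 17, 35194439 to 35196320, plus strand) is the membrane partner of lymphotoxin alpha and acts on the receptor encoded by Ltbr (chromosome 6, 125306571 to 125313885, minus strand). Ltb stood at 11.4 CPM in CD36+ cells (677 counts) and 14.6 CPM in double-negative cells (738 counts), against 0 counts in PDPN+ cells. It was at least 282-fold higher in CD36+ cells and at least 360.3-fold higher in double-negative cells. Its partner Lta was at 0 counts throughout. Leukocytes are the usual source of Ltb, and their part in its level was not tested. In CD36+, double-negative and PDPN+ cells the T and NK cell markers summed to 9.04, 17.0 and 6.60 CPM and the B cell markers to 10.6, 8.20 and 1.51 CPM. The pan-leukocyte markers summed to 7.03, 5.07 and 0.811 CPM in the same order. These 3 sums were lowest in PDPN+ cells, where Ltb was at 0. The myeloid markers, at 9.59, 0.594 and 5.49 CPM, were lowest in double-negative cells, where Ltb was highest. Of the 8 T and NK cell markers, Cd3d was at 8.83, 8.38 and 5.53 CPM in CD36+, double-negative and PDPN+ cells and Cd3g at 6.14 CPM in double-negative cells, while Cd2 and Ncr1 were at 0 counts in all 3 and Cd3e had at most 1. Of the 3 pan-leukocyte markers, Coro1a stood at 5.93 CPM in CD36+ cells and 4.06 CPM in double-negative cells, against 0 counts in PDPN+ cells, and Ptprc at 1.10, 0.970 and 0.798 CPM in the same libraries. Ltbr did not follow its ligand. It stood at 23.1 CPM in CD36+ cells and 0.832 CPM in double-negative cells (42 counts), against 8.64 CPM in PDPN+ cells. It was 2.67-fold higher in CD36+ than in PDPN+ cells (2.43 to 2.94) and 27.7-fold higher in CD36+ than in double-negative cells (20.4 to 38.6).

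On a list of 11 genes that are known to respond to this receptor, many of them in high endothelial venules, Glycam1, Ccl21a, Chst4, Fut7 and Enpp2 were apart on the higher side in double-negative cells against both other populations. The list also holds Tnfsf13b, a member described below. Glycam1, which encodes an L-selectin ligand, stood at 12.5 CPM in CD36+ cells and 3021 CPM in double-negative cells, against 12.3 CPM in PDPN+ cells. Ccl21a, a chemokine gene, stood at 34.4 and 3463 CPM in CD36+ and double-negative cells, against 39.8 CPM in PDPN+ cells. It is also 1 of 5 lymphatic endothelial markers examined. In CD36+, double-negative and PDPN+ cells, Prox1 stood at 18.1, 21.1 and 6.15 CPM and Flt4 at 11.9, 3.09 and 4.12 CPM. Lyve1 had 14 counts or fewer in each library, and Pdpn was highest in PDPN+ cells. The part of lymphatic cells in the Ccl21a level was not tested. Chst4 and Fut7, enzyme genes of selectin ligand synthesis, stood at 94.5 and 49.1 CPM in double-negative cells, with 1 and 0 counts in CD36+ cells and 0 of both in PDPN+ cells. Madcam1, an addressin gene, did the reverse, with 6.15 CPM in CD36+ cells and 2 counts in double-negative cells, against 14.4 CPM in PDPN+ cells. Cxcl13, a chemokine gene of lymphoid stroma, had 3 counts in CD36+ cells and stood at 181 CPM in double-negative cells, against 588 CPM in PDPN+ cells. Of the 11 genes, 9 reached 10 CPM in the double-negative or PDPN+ library and 5 of them were apart on the higher side in double-negative cells, 1 on the lower, where 14.9% of all genes were higher and 19.3% lower. The subunit genes of the alternative NF-kappa B pathway differed less, Relb at 19.8 and 13.9 CPM in CD36+ and double-negative cells against 9.03 CPM in PDPN+ cells, and Nfkb2 at 21.9 and 18.1 against 6.22 CPM.

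Tnfrsf14 encodes HVEM, a receptor for LIGHT (Tnfsf14, at 0 counts) and lymphotoxin alpha. It was among the most even members, at 64.0 CPM in CD36+ cells and 66.0 CPM in double-negative cells, against 46.4 CPM in PDPN+ cells, and at 71.6, 80.3 and 72.7 TPM in the same libraries. Its 1.38-fold and 1.42-fold excess in CPM over PDPN+ cells was not seen in TPM for CD36+ cells, where the direction turned.

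Fas and the TRAIL death receptor were higher in CD36+ and double-negative cells than in PDPN+ cells, and the death ligand TRAIL was lower. Fas, the receptor of Fas ligand, stood at 70.4 CPM in CD36+ cells and 48.4 CPM in double-negative cells, against 13.6 CPM in PDPN+ cells. Tnfrsf10b, the single mouse death receptor for TRAIL, stood at 72.3 and 34.9 CPM in CD36+ and double-negative cells, against 9.17 CPM in PDPN+ cells. Both were apart for CD36+ cells, 5.17-fold (4.83 to 5.54) and 7.89-fold (7.27 to 8.57), and below 4-fold for double-negative cells, 3.55-fold (3.30 to 3.83) and 3.80-fold (3.48 to 4.16). Of the 31-base stretches of Tnfrsf10b, 11.4% occur in other genes, so its level is less certain. Fasl was at 0 counts in every library. Tnfsf10, which encodes TRAIL, stood at 23.7 CPM in CD36+ cells and 25.9 CPM in double-negative cells, against 91.3 CPM in PDPN+ cells, 3.85-fold (3.64 to 4.08) and 3.52-fold (3.32 to 3.74) lower. TRAIL and its death receptor thus lay on opposite sides. The ligand was short of 4-fold in both pairs, and the receptor was past it for CD36+ cells (7.89-fold) but not for double-negative cells.

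Tnfrsf21, the orphan death receptor DR6, stood at 7.04 CPM in CD36+ cells and 9.31 CPM in double-negative cells, against 40.3 CPM in PDPN+ cells. It was 5.73-fold (5.17 to 6.36) and 4.33-fold (3.93 to 4.79) lower in CD36+ and double-negative cells. Tnfrsf25, the receptor DR3, had 306 counts (5.17 CPM) in CD36+ cells, 1 count in double-negative cells and 0 in PDPN+ cells. Its ligand TL1A, the endothelial cytokine encoded by Tnfsf15, stood at 2.80 CPM in CD36+ cells and 42.5 CPM in double-negative cells, against 2.95 CPM in PDPN+ cells. It was 15.2-fold lower in CD36+ than in double-negative cells (13.0 to 17.9), and 14.4-fold higher in double-negative than in PDPN+ cells (12.6 to 16.7). Receptor and ligand of this pair were thus highest in different libraries.

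Tnfrsf22, Tnfrsf23 and Tnfrsf26 are a mouse cluster on chromosome 7, of which the first 2 encode decoy receptors for TRAIL without a death domain. Tnfrsf22 lies 6083 bases from Tnfrsf26 and 16147 bases from Tnfrsf23. Tnfrsf26 stood at 22.4 CPM in CD36+ cells and 94.5 CPM in double-negative cells, against 4.64 CPM in PDPN+ cells, and it was apart in every pair. It was 4.82-fold (4.28 to 5.45) and 20.4-fold (18.3 to 22.8) above PDPN+ cells in CD36+ and double-negative cells, and 4.23-fold lower (3.97 to 4.49) in CD36+ than in double-negative cells. Tnfrsf22 stood at 20.5 CPM in CD36+ cells and 1.31 CPM in double-negative cells, against 6.59 CPM in PDPN+ cells. Tnfrsf23 had the opposite order, at 4.41 and 13.3 CPM in CD36+ and double-negative cells, against 10.4 CPM in PDPN+ cells. Values of these neighbours are uncertain, since 25.5% of the 31-base stretches in the annotated transcripts of Tnfrsf22 also occur in those of Tnfrsf23, and 26.6% the other way, so reads can be split between them; for Tnfrsf26 the share held by any other gene was 3.83%.

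Tnfrsf12a, which encodes Fn14, the receptor of the cytokine TWEAK, was the member with the highest level per length in all 3 libraries. It stood at 121 TPM in CD36+ cells and 149 TPM in double-negative cells, against 323 TPM in PDPN+ cells. In CPM it stood at 80.2 and 96.8, against 161, 2.01-fold (1.95 to 2.08) lower in the CD36+ and 1.67-fold (1.61 to 1.72) lower in double-negative cells. TWEAK itself is encoded by Tnfsf12, which overlaps the joint TWEAK and APRIL gene Tnfsfm13 on chromosome 11. Tnfsf12 stood at 0.963 CPM in CD36+ cells and 2.71 CPM in double-negative cells, against 2.87 CPM in PDPN+ cells. In TPM it ran the other way, at 7.20 in CD36+ cells and 2.60 in double-negative cells, against 3.65 in PDPN+ cells, and the effective length behind these values was 148 bases in CD36+ cells and 1256 bases in double-negative cells, against 1212 bases in PDPN+ cells. No direction is therefore given for Tnfsf12. Tnfsfm13 stood at 2.03 and 19.2 CPM in CD36+ and double-negative cells, against 0 counts in PDPN+ cells. As 73.8% of the 31-base stretches of Tnfsfm13 also occur in other genes, mainly Tnfsf13 (41.8%) and Tnfsf12 (30.7%), the division among these genes is uncertain.

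Tnfsf13b encodes BAFF, a survival factor of B cells. It had 1 count in CD36+ cells and 1 in double-negative cells, against 616 counts (8.33 CPM) in PDPN+ cells. It did not reach 10 CPM, and neither did its receptor genes Tnfrsf13b, Tnfrsf13c and Tnfrsf17, which were at 0.693 CPM or less in every library. Nearly all BAFF counts were thus in the library with basal epithelial markers. The fibroblast markers were also highest in that library, at 611 CPM. Of the myeloid markers, Cd68 had 389 counts there and 1 in each other library, while the sum of the 6 was highest in CD36+ cells. The part of such cells in the BAFF level was not tested.

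The costimulatory group, best known from exchanges between T cells and antigen-presenting cells, held ligands that were at 0 to 3 counts in 1 library and over 10 CPM in another. Tnfsf9, encoding 4-1BB ligand, stood at 12.1 CPM in CD36+ cells (714 counts) and at 0 counts in double-negative cells, against 23.1 CPM in PDPN+ cells (1708 counts). Tnfsf18, encoding GITR ligand, had 3 counts (0.0507 CPM) in CD36+ cells and 883 counts (17.5 CPM) in double-negative cells, against 745 counts (10.1 CPM) in PDPN+ cells. The first was at least 203-fold higher and the second 345-fold (118 to 1677) lower in CD36+ than in double-negative cells, so these ligands lay on opposite sides. Between these libraries 0 of the 10 endothelial markers were apart. Of 6 basal epithelial markers at 10 CPM, 1 was higher and 3 were lower in CD36+ cells, and of 7 luminal markers 2 were higher and 0 lower. Of all genes, 12.2% were higher and 11.9% lower. The basal markers Trp63, Krt14 and Krt17 were lower in CD36+ than in double-negative cells, as Tnfsf18 was, while Krt5 and Lama3 were higher. Acta2 and Myh11 were near even between these libraries. Trp63 had 3 counts in CD36+ cells and stood at 34.1 CPM in double-negative cells, against 1753 CPM in PDPN+ cells. Krt14 stood at 0.186, 123 and 1425 CPM and Krt5 at 18.4, 3.03 and 239 CPM in the same order. Unlike Tnfsf18, these basal markers were all highest in PDPN+ cells, and their part in its level was not tested. Against PDPN+ cells, Tnfsf18 was 199-fold (67.8 to 966) lower in CD36+ cells and Tnfsf9 at least 389-fold lower in double-negative cells. Of the 31-base stretches of Tnfsf9, 12.9% also occur in the antisense gene Gm11110, which stood at 3.35 CPM in PDPN+ cells and at 0 in the other libraries. Tnfsf8, encoding CD30 ligand, stood at 7.11 CPM in CD36+ cells, at 1 count in double-negative cells and at 4.10 CPM in PDPN+ cells.

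Among the costimulatory receptors, Tnfrsf18, which encodes GITR, alone reached 10 CPM. It had 0 counts in CD36+ cells and 57 counts (1.13 CPM) in double-negative cells, against 1677 counts (22.7 CPM) in PDPN+ cells. GITR was at least 447-fold lower in CD36+ cells and 20.1-fold (15.4 to 26.6) lower in double-negative cells. An antisense gene, Gm16008, shares 21.9% of its stretches, and stood at 4.89 CPM in double-negative cells and 0 in the others. With no strand setting stated, reads of a gene and its antisense partner cannot be told apart. The CD30 gene Tnfrsf8 stood at 3.43 CPM in double-negative cells, with 1 count in CD36+ cells and 0 in PDPN+ cells. Cd40, a receptor of antigen-presenting cells and activated endothelium, lay between 0.676 and 1.39 CPM in the 3 libraries, and its order between double-negative and PDPN+ cells turned in TPM; its ligand Cd40lg had at most 1 count, Tnfrsf9 was at 0.541 CPM or less and Tnfsf4 had at most 2 counts.

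Tnfrsf19, which encodes the orphan receptor TROY of skin appendages and neural tissue, had 1 count in CD36+ cells and 1 in double-negative cells, against 1241 counts (16.8 CPM) in PDPN+ cells. Its ratio was 993-fold (178 to 39268) lower in CD36+ cells and 847-fold (152 to 33490.5) lower in double-negative cells. Tnfrsf11b, described above, was the other receptor with at most 3 counts in both of these libraries and over 10 CPM in PDPN+ cells.

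**Figure D3:**
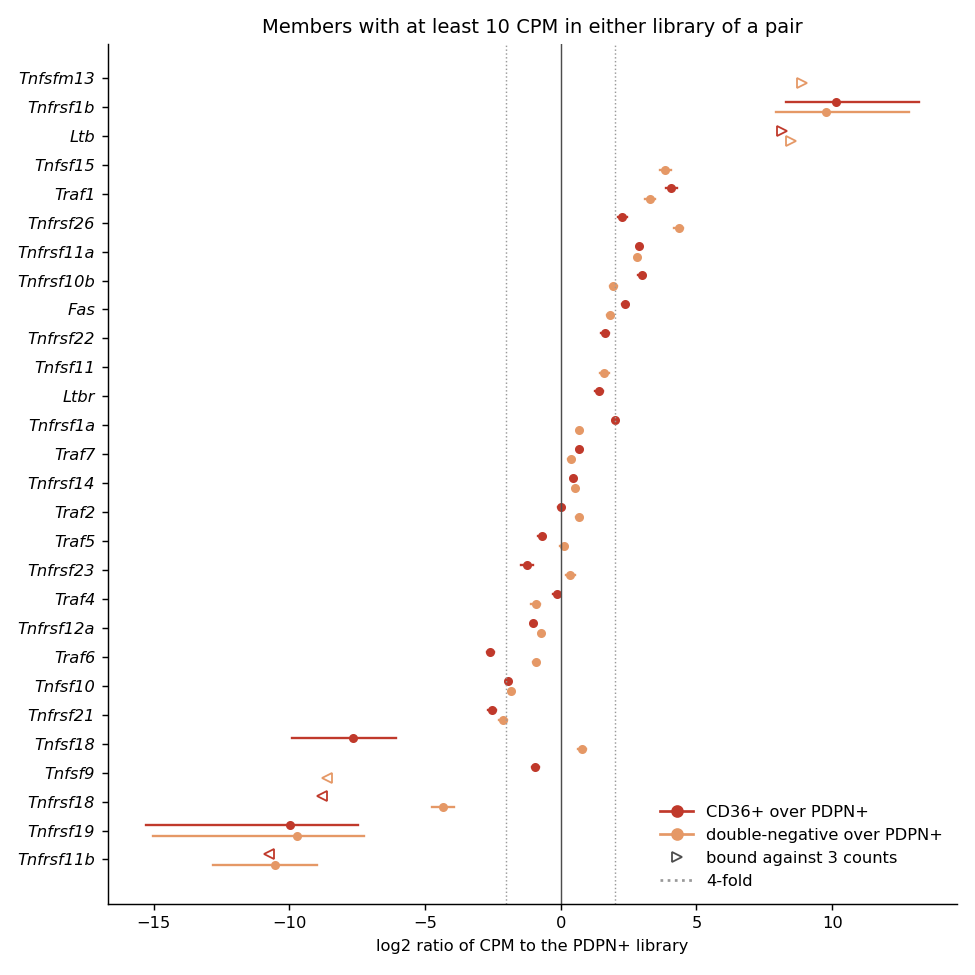
Log2 ratio of CPM to PDPN+ cells for members with at least 10 CPM in either library of the pair, in CD36+ cells (red) and double-negative cells (orange), with 95% counting intervals; open triangles are bounds against 3 counts and dotted lines mark 4-fold. Tnfrsf1b, Ltb, Traf1, Tnfrsf26 and Tnfrsf11a lie right of the 4-fold line in both pairs and Tnfrsf21, Tnfrsf18, Tnfrsf19 and Tnfrsf11b left of it.

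Of the 7 TRAF genes, Traf1 was apart from PDPN+ cells in both pairs. Traf1, an NF-kappa B target that lacks the RING domain of its relatives, stood at 54.8 CPM in CD36+ cells and 31.7 CPM in double-negative cells, against 3.25 CPM in PDPN+ cells. It was 16.9-fold (14.8 to 19.3) and 9.77-fold (8.53 to 11.2) higher in CD36+ and double-negative cells. Traf6, which also serves Toll-like and interleukin-1 receptors as well as RANK, had the opposite order, at 9.58 CPM in CD36+ cells and 30.6 CPM in double-negative cells, against 58.1 CPM in PDPN+ cells. It was apart in CD36+ cells, 6.06-fold lower (5.55 to 6.63), and 1.90-fold lower in double-negative cells (1.79 to 2.01).

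Traf2, the adaptor of both TNF receptors, stood at 19.3 CPM in CD36+ cells and 30.8 CPM in double-negative cells, against 19.3 CPM in PDPN+ cells. Traf3, which restrains the alternative NF-kappa B pathway, had 2 and 3 counts in CD36+ and double-negative cells, against 317 counts (4.29 CPM) in PDPN+ cells. Traf4 stood at 12.5 and 7.31 CPM in CD36+ and double-negative cells, against 13.9 CPM in PDPN+ cells, within a range that another scaling can turn for CD36+ cells. For Traf5 and Traf7, as for Tnfsf12, counts and TPM diverged. Traf5 stood at 9.75 and 17.2 CPM in CD36+ and double-negative cells against 15.9 CPM in PDPN+ cells, but at 5.66 and 10.9 TPM against 23.5 TPM. Traf7 stood at 33.1 and 26.8 CPM in CD36+ and double-negative cells against 20.6 CPM in PDPN+ cells, and at 16.7 and 19.1 TPM against 51.5 TPM, so its direction turned in every pair. The effective transcript length behind the TPM was 2185 and 1697 bases in CD36+ and double-negative cells against 618 bases in PDPN+ cells for Traf7, and 1893 and 1905 against 1046 bases for Traf5 (of whose 31-base stretches 11.4% occur in other genes), so reads were assigned to shorter transcripts of these genes in PDPN+ cells.

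Of 8 superfamily genes with other symbols, Eda2r and Edaradd reached 10 CPM in any library. Eda2r, encoding the X-linked ectodysplasin receptor XEDAR, stood at 237 CPM in CD36+ cells and 192 CPM in double-negative cells, against 22.3 CPM in PDPN+ cells, 10.6-fold (10.1 to 11.2) and 8.62-fold (8.18 to 9.08) higher. Edar, the ectodysplasin A receptor, and its adaptor Edaradd were highest in PDPN+ cells, Edar at 1 count, 1.11 CPM and 3.60 CPM and Edaradd at 0.422, 4.63 and 16.6 CPM in CD36+, double-negative and PDPN+ cells. Ngfr, the p75 neurotrophin receptor that basal mammary cells can carry, had 0 counts in CD36+ and double-negative cells and 224 counts (3.03 CPM) in PDPN+ cells. Cd70 was at 0 throughout, Relt at 6 counts or fewer and Eda at 4 or fewer, while Cd27 stood at 5.37 CPM in PDPN+ cells. Of 5 genes of ligand release and cleavage, Rhbdf1 alone was apart in both comparisons with PDPN+ cells. Rhbdf2 alone was apart between CD36+ and double-negative cells, at 10.9 CPM and 2 counts, and stood at 6.07 CPM in PDPN+ cells. Adam17, the TNF sheddase, stood at 33.6 and 28.2 CPM in CD36+ and double-negative cells against 59.7 CPM in PDPN+ cells, and Rhbdf1, which helps its maturation, at 0.726 and 1.47 against 25.6 CPM. Adam10, another sheddase, stood at 252 and 207 CPM in CD36+ and double-negative cells against 136 CPM in PDPN+ cells, and Furin, a proprotein convertase, at 24.5 and 15.5 against 43.2 CPM.

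Genes that carry the signal from the receptors made a list of 34. In the CD36+ over PDPN+ comparison 27 of them reached 10 CPM, 9 were apart on the higher and 4 on the lower side, with a median log2 ratio of 0.78, where 15.1% of all genes were higher and 17.6% lower with a median of -0.02. In the double-negative over PDPN+ comparison 11 of 27 were higher and 4 lower, with a median of 1.85, where 14.9% of all genes were higher and 19.3% lower with a median of -0.11. Between CD36+ and double-negative cells 1 of 26 was higher and 4 were lower in CD36+ cells, with a median of -0.10, where 12.2% of all genes were higher and 11.9% lower with a median of 0.11. The genes apart on the lower side in both comparisons with PDPN+ cells were Fadd, Cyld, Tab2 and Map3k5.

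Casp8, the initiator caspase of death receptors, stood at 437 CPM in CD36+ cells and 169 CPM in double-negative cells, against 17.6 CPM in PDPN+ cells, 24.8-fold (23.4 to 26.2) and 9.61-fold (9.06 to 10.2) higher. Fadd, the adaptor that links caspase-8 to these receptors, was on the other side, at 1.06 and 0.297 CPM in CD36+ and double-negative cells against 18.6 CPM in PDPN+ cells. Ripk3, the kinase of necroptosis, stood at 206 and 233 CPM in CD36+ and double-negative cells against 5.02 CPM in PDPN+ cells, while Mlkl, which it activates, stood at 6.50 CPM, 3 counts and 3.72 CPM in CD36+, double-negative and PDPN+ cells. Casp8 and Fadd were thus highest in different libraries, and so were Ripk3 and Mlkl, though Mlkl was under 10 CPM in all. Ripk1, another kinase gene of the list, was highest in double-negative cells, as Ripk3 was. It stood at 98.8 and 121 CPM in CD36+ and double-negative cells against 22.4 CPM in PDPN+ cells. Of the brakes on NF-kappa B, Tnfaip3 (A20) stood at 195 and 151 CPM in CD36+ and double-negative cells against 35.0 CPM in PDPN+ cells, and Cyld, a deubiquitinase, at 1.84 and 1.80 against 38.6 CPM. Xiap, a caspase inhibitor gene, stood at 373 and 142 CPM in CD36+ and double-negative cells against 23.0 CPM in PDPN+ cells, and Tank, which encodes a TRAF-binding regulator, at 124 and 457 against 125 CPM. Birc2, a ubiquitin ligase recruited by TRAF2, was highest in double-negative cells, at 28.0, 180.2 and 32.1 CPM in CD36+, double-negative and PDPN+ cells. Map3k14, the NIK kinase of the alternative pathway, had 2 counts or fewer in each library.

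Of 18 genes that TNF is known to induce, about as many were apart on the higher side as were not. All 18 reached 10 CPM in each pair, and 9 were apart on the higher side and 1 on the lower in the CD36+ over PDPN+ comparison (median log2 ratio 1.95), where 15.1% of all genes were higher and 17.6% lower (median -0.02). In the double-negative over PDPN+ comparison 9 were higher and 2 lower (median 1.83), where 14.9% of all genes were higher and 19.3% lower (median -0.11). Nfkbia, the NF-kappa B inhibitor that is itself induced by it, stood at 3265 CPM in CD36+ cells and 2848 CPM in double-negative cells, against 205 CPM in PDPN+ cells. Il6, an inflammatory cytokine gene, stood at 2233 and 1522 CPM in CD36+ and double-negative cells against 78.8 CPM, and Sele, the endothelial adhesion molecule E-selectin, at 1662 and 1133 against 48.6 CPM in PDPN+ cells. Cxcl1, a neutrophil chemokine gene, stood at 2595 and 3111 CPM in CD36+ and double-negative cells against 542 CPM in PDPN+ cells. Tnfaip8 did the reverse, at 13.8 and 5.72 CPM against 94.4 CPM in PDPN+ cells. Many of these genes respond to other signals too, and endothelial cells carry several of them as markers. With the lymphotoxin list, 9 of 25 response genes were apart on the higher and 3 on the lower side in CD36+ cells against PDPN+ cells, where 15.1% of all genes were higher and 17.6% lower. That count was 12 and 2 under upper quartile scaling, 6 and 3 under total counts and 5 and 3 in TPM. In double-negative cells against PDPN+ cells 14 of 27 were higher and 3 lower, where 14.9% and 19.3% of all genes were, and in CD36+ cells against double-negative cells 1 of 26 was higher and 6 lower, where 12.2% and 11.9% of all genes were.

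**Figure D4:**
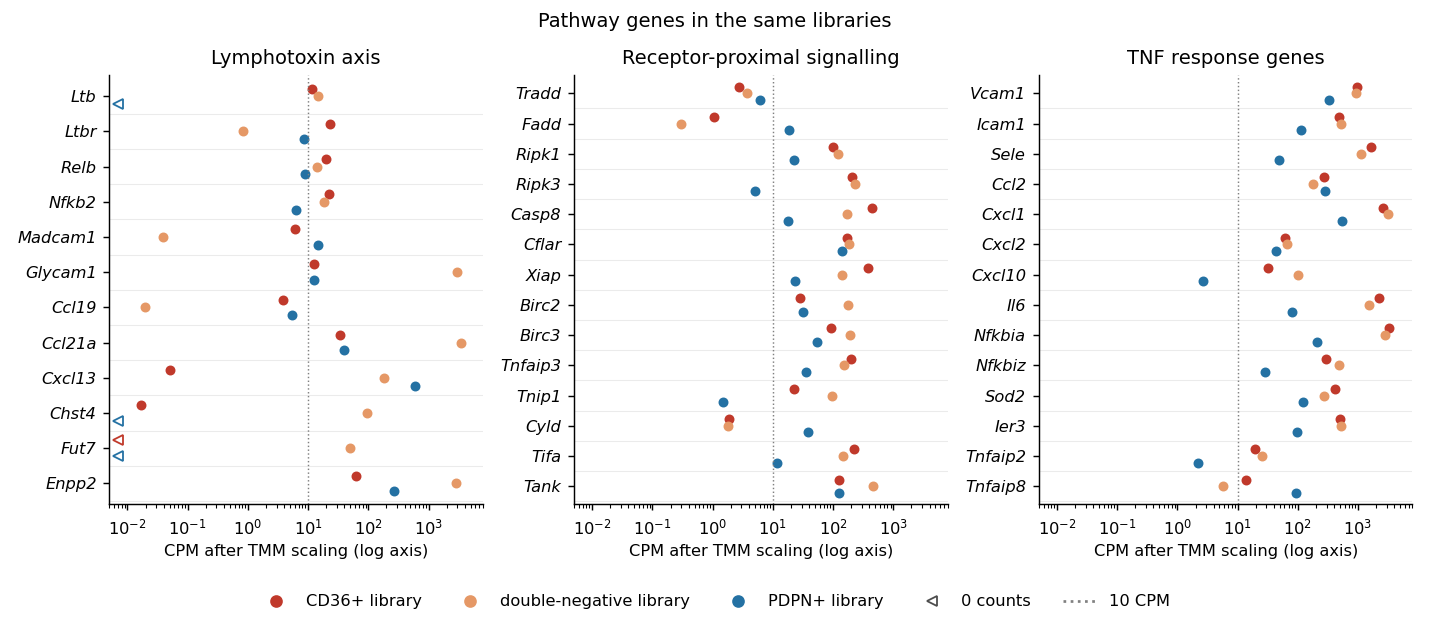
CPM on a log axis of lymphotoxin axis genes (left), genes next to the receptors (middle) and TNF response genes (right), with 1 point for each library and open triangles for 0 counts. Ltbr is lowest in double-negative cells, where Glycam1, Ccl21a, Chst4, Fut7 and Enpp2 are highest, and Fadd and Cyld lie opposite to Casp8, Ripk3 and Tnfaip3.

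Some members that are neighbours in the genome differed across libraries. On chromosome 17, Tnf lies 3060 bases from Ltb and 1157 bases from Lta, and both Tnf and Lta were at 0 counts. Ltbr lies 35476 bases from Tnfrsf1a on chromosome 6, and Ltbr was lowest in double-negative cells and Tnfrsf1a in PDPN+ cells. Tnfrsf4, at 0 counts, lies 9551 bases from Tnfrsf18, and Tnfsf8 lies 86194 bases from Tnfsf15, and double-negative cells held 42.5 CPM of Tnfsf15 and 1 count of Tnfsf8.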

How the data were processed

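The files were 1 gene table for each of 3 libraries, and each table listed 52661 gene identifiers. The deposited estimated counts and the deposited TPM came from Salmon 0.9.1 and the mm10 build, per the submitters' processing notes. Neither annotation release nor strand setting is given in the sources used. Per the labels' protocols, a low-input kit or a stranded ribosomal-depletion kit was used. No molecular identifiers are mentioned.

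Counts were rounded, identifiers were matched without version to GENCODE M21 (52566 matched), and members were taken by symbol. TMM factors (0.875 for the CD36+, 0.987 for the double-negative and 1.16 for the PDPN+ library) came from edgeR 4.0.16 in R 4.3.3. A fold against 0 counts uses a floor of 3 counts, no fold is given where both libraries are at or under it, and TPM ratios add 0.05. Other work used Python 3.11.15, numpy 2.4.6, pandas 2.3.3, scipy 1.17.1 and matplotlib 3.10.9. The ratio and interval code was tested on simulated data. The members and lists were chosen with earlier results of these data known. Any member could be named, and of each list the 4 genes with the highest level and those at least 4-fold apart; marker and sort genes were named where they stand beside a result. Mlkl, Map3k14, Relb, Nfkb2, Ngfr, Relt, Eda and Cd70 were chosen after their values were seen.

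The gene lengths deposited by the authors did not match TPM and counts for most genes with several transcripts (Tnfrsf14 is listed at 234.6 bases in 1 library, below its shortest annotated transcript of 394), so lengths given here were recomputed from counts and TPM. No replicate exists, so no p-value is given.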

Additional observations from a re-analysis of the deposited data

How the results depend on the processing

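Counts of members apart stayed within 1.5 times of those reported under total-count, upper quartile and DESeq2 1.42.0 scaling, under the deposited TPM, with a minimum of 1 CPM, at 2-fold and with a prior count of 0.5. Without a minimum level, 20 members were apart in the CD36+ over PDPN+ and 20 in the double-negative over PDPN+ comparison, and the added members were below 10 CPM in both libraries of the pair. At 2-fold, the CD36+ over double-negative comparison had 10 receptor-proximal genes and 11 response genes apart, against 5 and 7 at 4-fold. No member that was apart turned direction under another scaling, under TPM or with the other prior count. In TPM, 4 members were higher and 6 lower in the CD36+ over PDPN+ comparison. Of 75 member ratios, 54 moved beyond their counting interval under TPM, 53 under total counts, 38 under upper quartile scaling and 0 under DESeq2 scaling. No paired analysis was possible because each population had 1 library, and for the same reason no library could be left out. Depth limits the genes at a few counts: their folds have intervals that span more than an order of magnitude.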
